A study of Rattus norvegicus with 6 samples.

Results

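Genes of DNA break repair and of the Fanconi anaemia pathway were followed in cultured rat cells labelled as heart muscle after knockdown of eIF3m. The members were chosen by symbol: the Fanc, Rad50 to Rad59, Xrcc1 to Xrcc6, Msh and Mlh genes, and a further set of named genes from Brca1 to Mus81. Of 31038 genes listed, 57 were members, and 55 of them passed the filter on low counts. The samples were 6 RNA sequencing libraries, 3 from cells given a control siRNA and 3 from cells given an siRNA against eIF3m, a subunit of the translation initiation factor eIF3. All came from cells labelled NRVM with embryonic rat heart muscle as the origin, and both groups share a serum-containing medium. The protocol text also describes dexamethasone, isobutylmethylxanthine and insulin, without saying whether these cells received them. The siRNA dose, the time of harvest and whether replicates were separate cultures were not given in the sources used here. The p-values therefore measure only the spread between these libraries, which may be technical.

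DNA breaks are repaired by several routes that share few enzymes. Homologous recombination copies an intact sister chromatid, works mainly in S and G2 phase, and uses the MRN complex, the BRCA proteins and factors of strand exchange. End joining religates broken ends at any stage of the cell cycle and depends on the Ku proteins and DNA-PKcs. The Fanconi proteins unhook crosslinked strands at stalled forks, and mismatch repair corrects copying errors behind the fork. Heart muscle cells leave the cell cycle soon after birth, so recombination genes are usually associated with their dividing precursors or with other dividing cells of the heart.

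Total counts were 7421598 to 8585412 in the control libraries and 10041107, 2151671 and 7884367 in eIF3m replicates 1, 2 and 3. Eif3m itself stood at 138, 136 and 141 CPM in controls (CPM: counts relative to library totals scaled by the TMM method) and at 92.0, 84.1 and 87.6 CPM after the knockdown (log2 fold change -0.64 ± 0.05 SE, edgeR quasi-likelihood test, adjusted p = 1.41e-07). Of 14 cardiomyocyte markers 3 could be tested, Tnnt2, Pln and Ttn, and all fell. The whole list summed to 413 to 425 CPM in controls and 157 to 178 CPM in the eIF3m libraries. Most of this sum was Tnnt2, at 366 and 152 CPM on average. Myl3 was at 0 in every library, Myh7 and Myl2 had at most 3 counts in each, and Tnni3, Myh6 and Ryr2 had at most 11. Fibroblast markers summed to 15200 to 15693 CPM in controls and 16561 to 17344 CPM in the eIF3m libraries. Most of this was Col1a1, at 12050 and 13266 CPM on average. Of 8 tested fibroblast markers 5 rose and 1 fell (Thy1, from 482 to 329 CPM), next to 17.4% and 21.2% of all genes. Dcn and Lum, counted as risen, averaged 1.09 and 0.657 CPM in controls and were highest in eIF3m replicate 1 (55.5 and 10.3 CPM). eIF3m replicate 1 stood apart, with blood markers at 6229 CPM in sum against 72.8 to 251 CPM in the other eIF3m libraries and 62.8 to 106 CPM in controls. Its endothelial markers reached 208 CPM, against 34.8 to 51.6 CPM in the other 5 libraries. Smooth muscle markers summed to 5136 to 5266 CPM in controls and 3434 to 3609 CPM after the knockdown. Skeletal myoblast markers summed to 84.7 to 90.1 and 42.9 to 49.1 CPM, and 5 of 6 tested fell, next to 21.2% of all genes. Myod1 stood at 13.2 to 17.9 CPM in controls and at 13.3 to 19.5 CPM after the knockdown. Myog went from 16.9 to 22.1 CPM down to 4.78 to 6.20 CPM, and Pax7 was at 0 in every library. Both Myod1 and Myog were listed as skeletal myoblast markers, whereas the labels give heart muscle. The part of these cell type markers in the results on repair genes was not tested.

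A part of the repair genes was higher after eIF3m knockdown. No test of the set as a whole was run. Of the 55 tested members 26 rose, 47.3%, at Benjamini-Hochberg adjusted p under 0.05, and 0 fell in the edgeR quasi-likelihood test. Over all 12724 genes tested 17.4% rose and 21.2% fell. The median log2 fold change was 0.39 for the members and 0.01 for all genes, and it was above 0 in 46 members and in 51.4% of all genes. At an unadjusted p under 0.05 in edgeR, 32 members were higher and 1 lower (Nbn), 33 of 55 in either direction. Over all genes tested 5977 of 12724 passed that cut in either direction. DESeq2 called 23 members higher and limma-voom 27, and both called 0 lower. The shares of all genes called in those fits are not given here. The groups did not overlap for 34 members with the eIF3m libraries above, among 23.3% of all genes, and for 1 member with them below, among 25.3% (48.6% in either direction). Without eIF3m replicate 1 again 26 members rose: 2 lost the call, Chek2 among them, and 2 gained it (Palb2 and Parp1). In bulk RNA a larger share of cells in S or G2 phase and more RNA of these genes per cell cannot be told apart.

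The risen members covered a range from 1.21-fold (Rad50) to 3.40-fold (Rad54b), and 15 of the 26 exceeded 1.5-fold. The rise was at least 2-fold for Rad54b, Exo1 and Polq, 3 of 55, and 2.62% of all genes tested rose at least that far. Of the 29 members that were not called, 9 had a negative fold change and 20 had overlapping groups. In all 9 had a log2 fold change above 0.35 with a mean of at most 12.02 CPM in either group: Eme1, Fancc, Fancg, Fancl, Lig4, Palb2, Rad51b, Rad51c and Rad51d. For 13 of the 29 the 95% interval of the log2 fold change lay within ±0.40, or 1.32-fold, and these were Chek1, Fance, Lig3, Msh3, Mus81, Parp1, Prkdc, Rad52, Tp53bp1, Wrn, Xrcc1, Xrcc5 and Xrcc6. Not tested were Msh4 and Rad51ap2: Msh4, a meiotic MutS gene, had 0 to 4 counts per library and Rad51ap2, a gene of meiotic recombination, also had 0 to 4.

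**Figure D1:**
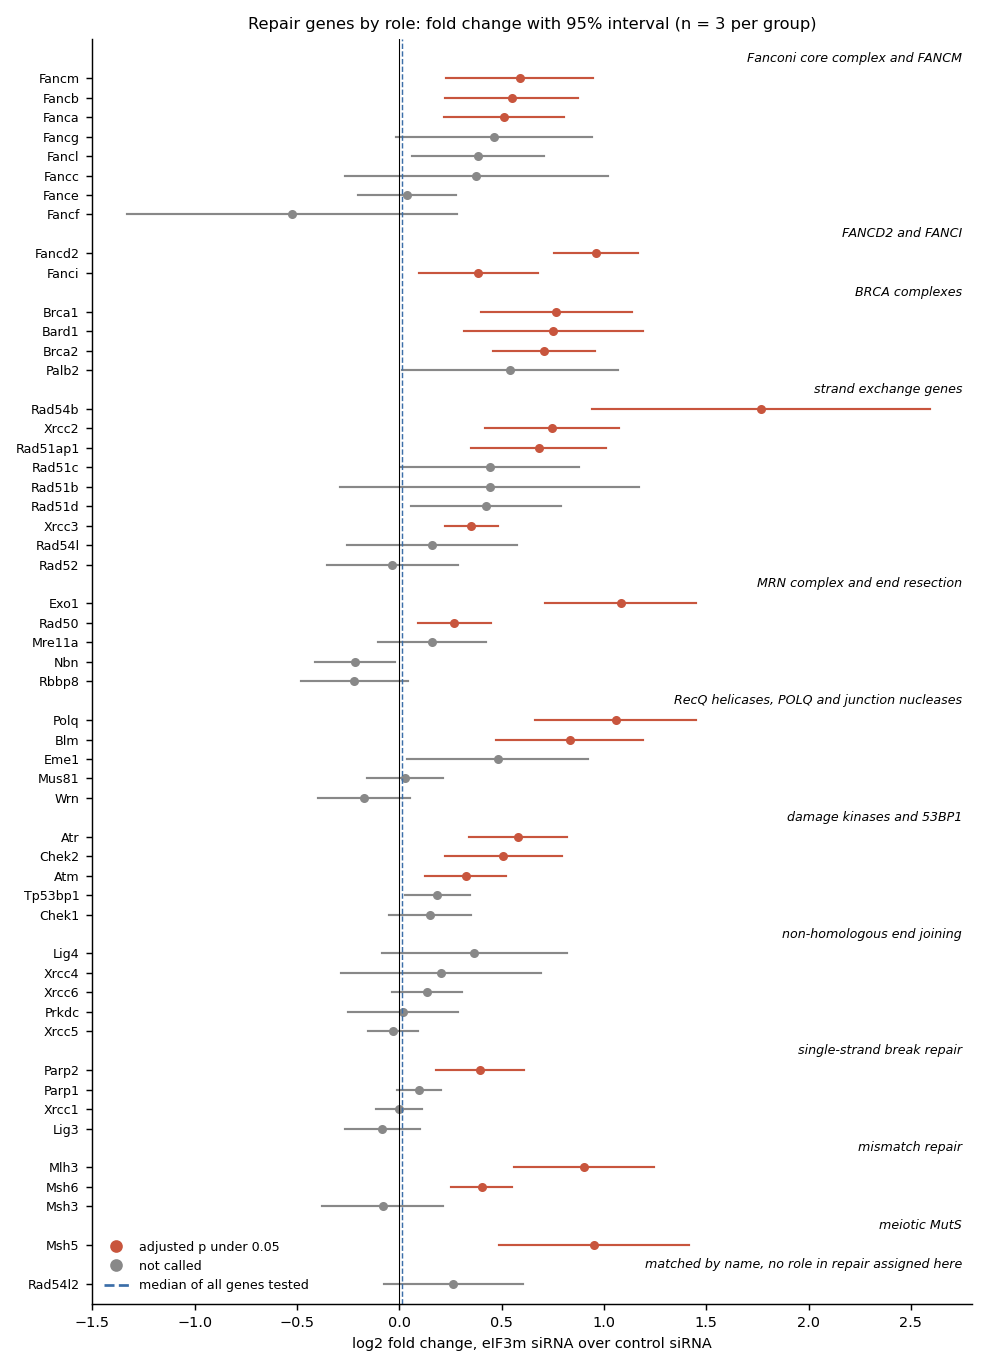
Log2 fold change (x axis, eIF3m over control siRNA, n = 3 libraries per group) with its 95% interval for 52 of the 55 tested members, grouped by role; red points passed adjusted p under 0.05 and the dashed line is the median of all genes. The 23 red points all lie right of the line, and no gene of the non-homologous end joining group is among them.

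As 26 of the members rose and cell cycle genes rose as well, the promoters of members with an entry in the RefSeq table of build GRCr8 (44 of 57) were searched for letters bound by cell cycle factors. E2F factors, which drive S phase genes, were represented by TTTGGCGC, TTTCCCGC, TTTCGCGC and TTTGGCGG. The CHR element of G2 and mitosis genes was TTTGAA or TTCGAA, and the CCAAT box was CCAAT. Both strands were read in 300 bases per gene, 250 before and 50 after the start. An E2F match lay in 8 of 44 member promoters (18.2%), as against 2.18% of all 33469 promoters, 4.45% of those of tested genes and 61.5% of 26 promoters of a list of S phase genes. Among members that rose, 4 of 18 held it (22.2%), and among the remaining members 4 of 26 (15.4%). A CHR match lay in 20.5% of member promoters, 19.7% of all, 13.7% of those of tested genes and 74.2% of 31 promoters of G2 and mitosis genes. A CCAAT box lay in 34.1%, 37.5%, 38.3% and 77.4% of these. The S phase list holds many known E2F targets, and a match of letters is a description, not a binding site.

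The 8 promoters with an E2F match are shown as 30 bases on the strand of the gene, 5′ to 3′, with the match in capitals, since they cut across the called and uncalled members. The first 4 rose and the last 4 were not called.
Fancd2: gcgtccgacaaGCGGGAAAgtcgaaaacga
Msh6: ctcctcccggcTTTCCCGCcagcagtggcc
Bard1: gtgccgctctgTTTCCCGCtcaggaagttt
Atm: gatccgtgcacGCGGGAAAaggcgaagcga
Chek1: cgcaagcaggtTTTGGCGGgaaaagctgtg
Rad51d: acctgcatcctTTTCCCGCcccctcgtccc
Fancl: aacctgttgcgccaTTTCCCGCtgctgctt
Fancc: cccttgcgaccGCGGGAAAattccaaactc
GCGGGAAA is TTTCCCGC read on the opposite strand. In Chek1 the TTTGGCGG shown overlaps a GCGGGAAA. The windows are, in GRCr8, chr4:148234706-148234735 (+) for Fancd2, chr6:12333492-12333521 (-) for Msh6, chr9:80143942-80143971 (-) for Bard1, chr8:62828850-62828879 (-) for Atm, chr8:44629857-44629886 (-) for Chek1, chr10:68321898-68321927 (-) for Rad51d, chr14:104451007-104451036 (+) for Fancl and chr17:1687049-1687078 (+) for Fancc. The matches begin at base 10 after the start in Fancd2 and 35 in Fancl, and at 5, 205, 239, 32, 14 and 29 bases before it in Msh6, Bard1, Atm, Chek1, Rad51d and Fancc.

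Of members with the largest rises, Polq held a CHR match across its start, at chr11:77281254-77281283 (-) in GRCr8, and Exo1 held a pair of CCAAT boxes in reverse, the second of which is at chr13:90341862-90341891 (+).
Polq: gggatgcctgaaTTTGAAgcagaggcggga
Exo1: ctggcattggccATTGGcggcagagttcct
Neither held an E2F match in these letters. Rad54b, with the largest rise, was not among the members with a match of any of these motifs. However, 13 members had no promoter entry, and whether Rad54b was one of them is not given here. A CHR match lay in 3 of 18 promoters of members that rose (16.7%) and in 6 of 26 of the remaining members (23.1%). A CCAAT box lay in 8 of 18 (44.4%) and 7 of 26 (26.9%). A link of these matches to the rises was not tested.

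The Fanconi core complex is a ubiquitin ligase that is loaded at crosslinks by the translocase FANCM and that marks FANCD2 and FANCI, the clamp at the centre of the pathway. Fancd2 rose the most of these genes. Its levels, in the order of replicates 1, 2 and 3 that is kept throughout, were 20.9, 21.6 and 19.0 CPM with the control siRNA. With the eIF3m siRNA they were 39.9, 44.3 and 37.8 CPM, all well above the controls. The log2 fold change was 0.96 ± 0.10 SE, or 1.95-fold with a 95% interval of 1.69 to 2.25 (edgeR, adjusted p = 1.3e-06). Its partner Fanci stood at 16.9, 14.97 and 13.7 CPM and at 17.7, 18.6 and 22.6 CPM, so the nearest libraries of the groups almost touched (0.39 ± 0.14 SE, adjusted p = 0.0361). The Fanci call was lost without control replicate 2 (0.37), control replicate 3 (0.31) or eIF3m replicate 3 (0.25), and with DESeq2, the replicate block and thinned libraries. The counts of Fancd2 over Fanci were 1.24, 1.44 and 1.39 in controls and 2.25, 2.38 and 1.67 in the eIF3m libraries.

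Of the 8 core genes 3 rose, next to 17.4% of all genes tested. Fanca, a scaffold of the complex, went from 13.9, 11.1 and 11.5 CPM to 16.6, 19.0 and 17.2 CPM. Fancb, which pairs with the ligase FANCL, went from 10.1, 10.4 and 8.38 CPM to 14.5, 12.4 and 14.3 CPM. Fancm went from 7.66, 10.1 and 10.47 CPM to 12.6, 16.8 and 14.7 CPM. In each of the 3 every eIF3m library lay above every control, and their log2 fold changes were 0.51, 0.55 and 0.59 with adjusted p of 0.00837, 0.0097 and 0.0122 in edgeR. Fancm was not called without control replicate 1 (0.46), nor Fancb without control replicate 3 (0.45), and none of the 3 was called with thinned libraries.

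The ligase subunit gene Fancl stood at 8.79, 9.21 and 9.37 CPM and at 11.3, 12.4 and 12.4 CPM. Its groups did not overlap, yet it missed the threshold (0.38 ± 0.15 SE, adjusted p = 0.0582), and it passed with limma-voom, a stricter filter, upper-quartile scaling and no scaling factors. Fancg (0.46) and Fancc (0.38) were not called, at means of 4.27 and 4.06 CPM in controls. Fance, which links the core to FANCD2, was at 0.04 with a 95% interval of -0.20 to 0.28, and Fancf was at -0.53 (-1.33 to 0.28) with 7 to 29 counts per library.

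BRCA1 with its partner BARD1 is a ubiquitin ligase that promotes end resection, and PALB2 joins BRCA1 to BRCA2, which acts on single-stranded DNA in strand exchange. In this group 3 of 4 genes rose, next to 17.4% of all genes tested. All 4 had the eIF3m libraries above the controls, next to 23.3% of all genes. Brca2 was at 19.3, 14.6 and 18.7 CPM in controls and at 27.9, 28.8 and 29.4 CPM in the eIF3m libraries, which lay close together. Brca1 was at 9.36, 8.06 and 6.53 CPM and at 13, 11.95 and 14.9 CPM. Bard1 was at 8.08, 7.29 and 4.93 CPM and at 10.3, 13.7 and 11.3 CPM. Their log2 fold changes were close to each other: 0.71 ± 0.12 SE for Brca2, 0.77 ± 0.17 for Brca1 and 0.75 ± 0.20 for Bard1 (edgeR, adjusted p = 1.82e-04, 0.00245 and 0.00871). Bard1 was not called with thinned libraries. Palb2 was at 4.68, 5.12 and 3.45 CPM and at 5.35, 6.20 and 7.70 CPM. Its log2 fold change of 0.54 ± 0.25 SE missed the threshold (adjusted p = 0.0971) and passed without eIF3m replicate 1 (0.72, adjusted p = 0.0472) and with no scaling factors (0.69).

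**Figure D2:**
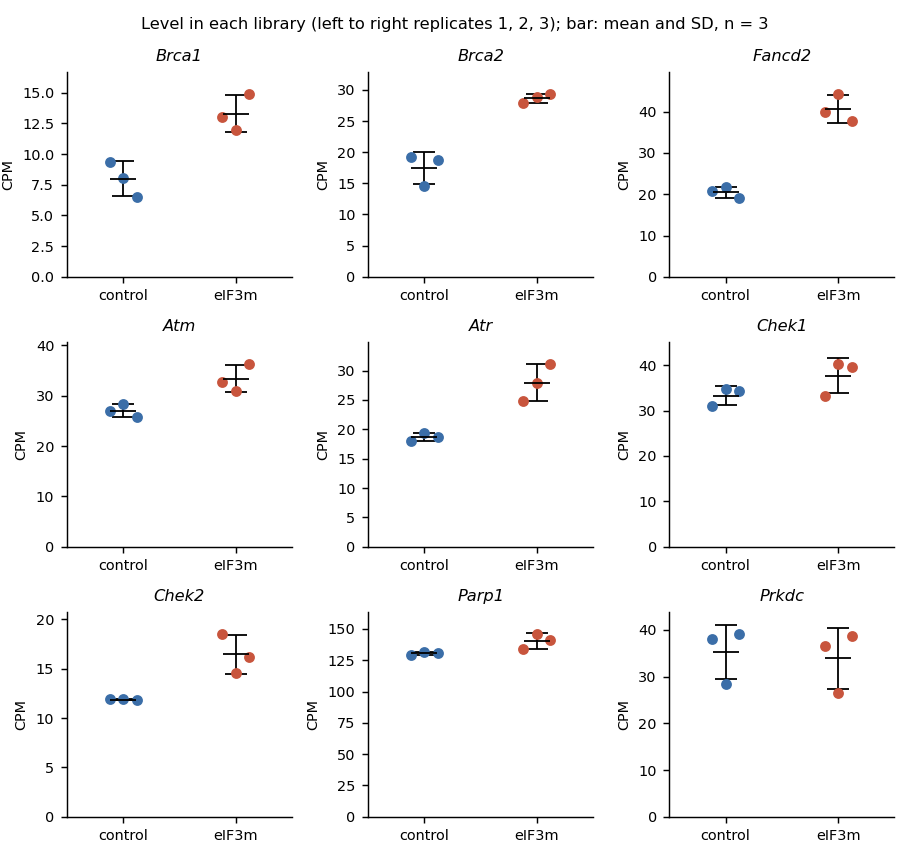
CPM (y axis, from 0) of 9 members in each control (blue) and eIF3m (red) library, with the mean and SD of 3 libraries as bars. Brca2, Fancd2 and Atr show a gap between the groups, whereas the Prkdc groups overlap.

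In strand exchange the broken DNA searches for the sister sequence, which the products of Rad51b, Rad51c, Rad51d, Xrcc2 and Xrcc3 assist and which RAD54 proteins help to complete. Of 10 tested genes of this group 5 rose, next to 17.4% of all genes tested. Xrcc2 was at 10.4, 9.73 and 8.87 CPM and at 17.2, 18.6 and 13.8 CPM (0.75 ± 0.15 SE, edgeR, adjusted p = 0.00127). Xrcc3 was at 57.7, 62.6 and 58.9 CPM and at 78.0, 80.6 and 72.2 CPM, a smaller rise with a narrow error (0.35 ± 0.06 SE, adjusted p = 2.89e-04). Both were separated and were called under all 16 alternatives. Rad51c and Rad51d were separated as well but missed the threshold at 0.44 ± 0.20 and 0.42 ± 0.17 SE (adjusted p = 0.101 and 0.0634). Rad51d passed in edgeR without eIF3m replicate 3 (0.55, adjusted p = 0.03), with thinned libraries (1.01, adjusted p = 0.0104), and with a stricter filter (0.45), upper-quartile scaling (0.49) or no scaling factors (0.57). Rad51c passed with no scaling factors. Rad51b, at 3 to 45 counts per library, overlapped (0.44, 95% interval -0.29 to 1.17).

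Rad54b, a DNA translocase related to RAD54, had the highest fold change of all members. Its counts were 7, 6 and 16 in controls and 54, 11 and 26 in the eIF3m libraries, that is 0.993, 0.768 and 1.97 CPM and 5.16, 4.87 and 3.13 CPM. The log2 fold change was 1.77 ± 0.39 SE, or 3.40-fold with a 95% interval of 1.92 to 6.03 (edgeR, adjusted p = 0.002). The low counts of the controls make this size imprecise. Rad51ap1, which stimulates strand pairing, rose from 9.22, 8.83 and 12.3 CPM to 16.9, 15.9 and 15.8 CPM (0.68 ± 0.16 SE). Rad54l (0.16, 95% interval -0.26 to 0.57) and the annealing factor gene Rad52 (-0.03, -0.35 to 0.29) overlapped.

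At broken ends the MRN complex (MRE11, RAD50 and NBN) and CtIP, the product of Rbbp8, begin resection, and the nuclease EXO1 extends it. Exo1 was at 6.81, 9.21 and 6.53 CPM in controls and at 14.7, 14.6 and 17.9 CPM in the eIF3m libraries, 2.12-fold higher with a 95% interval of 1.64 to 2.73 (edgeR, adjusted p = 1.39e-04). Rad50 rose less, from 34.6, 33.0 and 36.6 CPM to 41.6, 36.8 and 44.6 CPM, with eIF3m replicate 2 next to the highest control (0.27 ± 0.08 SE, adjusted p = 0.0198). Rad50 was not called without control replicate 1 (0.26), control replicate 2 (0.23) or eIF3m replicate 3 (0.21), nor with DESeq2 or thinned libraries.

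The other members of the resection group were not called. Nbn was at 38.7, 37.4 and 35.5 CPM and at 32.7, 26.1 and 33.7 CPM. It was the single member whose eIF3m libraries all lay below the controls, and it missed the threshold (-0.22 ± 0.09 SE, adjusted p = 0.0737). Rbbp8 was at 19.0, 21.8 and 21.3 CPM and at 19.1, 14.2 and 17.9 CPM, with overlapping groups (-0.22 ± 0.12 SE, adjusted p = 0.174), and was called lower with thinned libraries alone (-0.53, adjusted p = 0.0435). Mre11a, the older symbol of Mre11, was at 17.3, 17.27 and 16.88 CPM and at 17.49, 17.71 and 21.65 CPM. Its eIF3m libraries all lay above the controls, by a small step in replicates 1 and 2 (0.16, 95% interval -0.10 to 0.42). Rad50 over Nbn went from 0.894, 0.884 and 1.03 in controls to 1.27, 1.41 and 1.33, whereas Rad50 over Mre11a overlapped between the groups.

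Late in repair the helicase BLM dissolves linked DNA molecules, WRN is its relative, the MUS81 and EME1 nuclease cuts them, and POLQ joins ends by short homologies. Polq rose from 4.82, 5.50 and 5.05 CPM to 9.85, 11.1 and 11.4 CPM, 2.08-fold with a 95% interval of 1.58 to 2.73 (edgeR, adjusted p = 3.07e-04). Blm rose from 6.95, 5.89 and 6.65 CPM to 11.4, 11.1 and 12.03 CPM (0.83 ± 0.17 SE, adjusted p = 0.00108). Wrn was at 25.3, 27.3 and 22.6 CPM and at 22.7, 21.3 and 22.1 CPM, with no rise (-0.17 ± 0.11 SE, adjusted p = 0.22). The count of Blm over that of Wrn went from 0.275, 0.216 and 0.295 in controls to 0.502, 0.521 and 0.544 in the eIF3m libraries, a 2.01-fold change. Eme1 was at 5.11, 6.01 and 5.30 CPM and at 6.98, 9.30 and 7.58 CPM and missed the threshold (0.48 ± 0.21 SE, adjusted p = 0.0803), passing with a stricter filter, upper-quartile scaling or no scaling factors. Mus81, its partner, was at 0.03 (95% interval -0.16 to 0.22).

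ATM responds to breaks and ATR to single-stranded DNA at forks; their targets include the kinases CHK2 and CHK1, and 53BP1, the product of Tp53bp1, restrains resection. Of these 5 genes 3 rose, next to 17.4% of all genes tested. Atr was at 18.01, 19.3 and 18.6 CPM and at 24.9, 27.9 and 31.2 CPM (0.58 ± 0.11 SE, edgeR, adjusted p = 7.67e-04). Atm was at 27.0, 28.4 and 25.8 CPM and at 32.8, 31.0 and 36.3 CPM (0.32 ± 0.09 SE, adjusted p = 0.012). Chek2 was at 11.9, 11.9 and 11.8 CPM and at 18.5, 14.6 and 16.2 CPM (0.51 ± 0.13 SE, adjusted p = 0.00737). These 3 were separated, but Atm was not called without control replicate 3 (0.28) or eIF3m replicate 3 (0.25) or with thinned libraries, nor Chek2 without eIF3m replicate 1 (0.41).

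Chek1 was at 30.9, 34.7 and 34.3 CPM and at 33.2, 40.3 and 39.7 CPM, with overlap and no call (0.15 ± 0.09 SE, adjusted p = 0.231). Tp53bp1 was at 44.7, 50.8 and 47.1 CPM and at 52.8, 49.6 and 57.6 CPM, also with overlap (0.19 ± 0.07 SE, adjusted p = 0.0598), and it passed without eIF3m replicate 2 (0.21, adjusted p = 0.047), with a stricter filter, upper-quartile scaling and no scaling factors. Chek1 over Chek2 was 2.60 to 2.91 in controls and 1.79 to 2.76 in the eIF3m libraries, with overlap.

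In non-homologous end joining the Ku pair, encoded by Xrcc6 and Xrcc5, holds the ends and recruits DNA-PKcs, the product of Prkdc, and XRCC4 with ligase IV seals them. Of these 5 genes 0 were called by edgeR, DESeq2 or limma-voom, and 0 had an unadjusted p under 0.05 in edgeR. Over all genes tested edgeR called 38.7% in either direction, so most genes were not called. The difference of this short list from other genes was not tested. Xrcc5 was at 58.9, 59.8 and 60.8 CPM in controls and at 59.6, 57.6 and 58.0 CPM in the eIF3m libraries, a log2 fold change of -0.03 with a 95% interval of -0.15 to 0.09. Xrcc6 was at 53.9, 47.0 and 54.8 CPM and at 53.9, 52.7 and 62.3 CPM (0.14, -0.04 to 0.31), and it passed in the fit with no scaling factors (0.28, adjusted p = 0.0106). Prkdc was at 38.0, 28.5 and 39.2 CPM and at 36.6, 26.6 and 38.7 CPM (0.02, -0.25 to 0.29). The low library of each Prkdc group was replicate 2.

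The ligation genes were less precise. Lig4 was at 5.82, 5.89 and 6.04 CPM and at 8.22, 4.87 and 8.30 CPM (0.37, 95% interval -0.09 to 0.82). Xrcc4 was at 4.96, 5.25 and 5.92 CPM and at 6.69, 3.99 and 6.74 CPM (0.21, -0.28 to 0.69). In both genes eIF3m replicate 2, with 11 and 9 counts, lay below every control, and the other eIF3m libraries lay above.

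PARP1 and PARP2 detect nicks, and XRCC1 with ligase III repairs them. Parp2 rose from 21.4, 25.6 and 22.6 CPM to 30.3, 32.8 and 29.7 CPM (0.39 ± 0.10 SE, edgeR, adjusted p = 0.0056). Parp1, with the highest counts of all members, was at 129, 131 and 131 CPM and at 134, 146 and 141 CPM. These groups were separated by a small step that missed the threshold (0.10 ± 0.05 SE, adjusted p = 0.142), and Parp1 passed without eIF3m replicate 1 (0.13, adjusted p = 0.0444), with upper-quartile scaling and with no scaling factors. Xrcc1 was at 107, 110 and 107 CPM and at 111, 101 and 109 CPM, a log2 fold change of -0.0016 with a 95% interval of -0.11 to 0.11. Lig3 was at 35.5, 35.8 and 34.5 CPM and at 33.1, 29.2 and 35.4 CPM (-0.08, -0.26 to 0.10). Parp2 over Parp1 was 0.166, 0.195 and 0.173 in controls and 0.226, 0.224 and 0.211 in the eIF3m libraries.

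Mismatch repair rose in 4 of 5 tested genes, next to 17.4% of all genes tested. MSH6 acts in the complex that detects single mismatches, MSH3 in the one that detects longer loops, and MLH3 in one that cuts the new strand. Msh6 was at 60.3, 65.8 and 67.9 CPM and at 82.4, 76.6 and 93.5 CPM (0.40 ± 0.07 SE, edgeR, adjusted p = 3.12e-04). The groups did not overlap. Msh3 overlapped between the groups and was not called (-0.08, 95% interval -0.38 to 0.21). Msh6 over Msh3 was 3.22 to 4.55 in controls and 4.44 to 5.75 in the eIF3m libraries, which overlap.

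Mlh3 was at 10.8, 10.49 and 9.24 CPM and at 20.7, 12.8 and 20.2 CPM, with eIF3m replicate 2 well below the others of its group (0.90 ± 0.16 SE, edgeR, adjusted p = 3.56e-04). It still lay above every control. Msh5, a meiotic MutS gene with low levels here, rose from 3.97, 3.71 and 4.07 CPM to 7.27, 6.64 and 8.42 CPM (0.95 ± 0.22 SE, adjusted p = 0.0027). Rad54l2, which the symbol rule takes in but to which no role in repair is assigned here, was at 11.9, 11.5 and 10.1 CPM and at 14.2, 9.74 and 14.3 CPM, with overlap (0.26 ± 0.16 SE, adjusted p = 0.207).

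**Figure D3:**
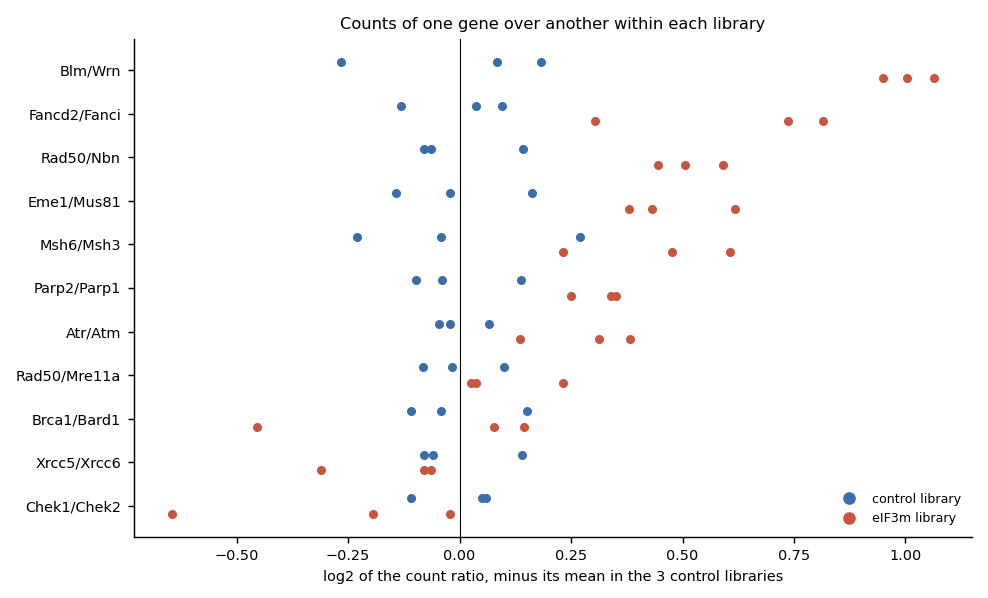
Log2 of the count of one gene over that of another within a library (x axis, minus its mean in the 3 control libraries) for 11 pairs, control in blue and eIF3m in red. The groups are apart for 6 pairs, with Blm over Wrn shifted most, and overlap for 5.

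A ratio within a library does not depend on how libraries are scaled. The 11 pairs were chosen after values had been seen, as genes that work together or are related. The eIF3m libraries lay above the controls for 6 pairs: Blm over Wrn, Fancd2 over Fanci, Rad50 over Nbn, Eme1 over Mus81, Parp2 over Parp1 and Atr over Atm. For these the two-sided exact permutation test gave p = 0.10, the smallest that 3 against 3 libraries allow, and 0.183 after Benjamini-Hochberg adjustment over the 11 pairs. Overlap remained for Brca1 over Bard1, Xrcc5 over Xrcc6, Msh6 over Msh3, Chek1 over Chek2 and Rad50 over Mre11a.

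Repair genes outside the members were counted in the same way. In 5 lists that together hold 113 tested genes, 34 rose and 10 fell, with a median log2 fold change of 0.18; over all genes tested 17.4% rose and 21.2% fell, and the difference from the members was not tested. Of 40 further Fanconi and recombination genes 12 rose and 2 fell. Gen1, a nuclease that cuts crossed DNA strands (0.92 ± 0.11 SE), Rfwd3, a ubiquitin ligase at stalled forks (0.89 ± 0.14), and Usp1, which removes ubiquitin from FANCD2 (0.46 ± 0.08), rose. Bre, a subunit of the BRCA1-A complex (-0.34 ± 0.06), and Ercc1, a subunit of the XPF nuclease (-0.42 ± 0.11), fell. Of 22 checkpoint genes 8 rose, among them Timeless (0.55 ± 0.07), Rad9a (0.40 ± 0.07), Topbp1 (0.43 ± 0.08) and Wee1 (0.34 ± 0.06), and Trip12, a ubiquitin ligase, fell (-0.18 ± 0.05).

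Of 13 further end joining genes 6 rose and 1 fell, next to 17.4% and 21.2% of all genes tested. The gene that fell was Polm, a polymerase of end joining, from 56.2 ± 1.72 to 27.5 ± 0.709 CPM (SD, n = 3 per group; log2 fold change -1.04 ± 0.07 SE). Paxip1 (0.28 ± 0.05), Aplf (0.52 ± 0.10) and Atp23 (0.49 ± 0.13) rose. Atp23 was placed among these genes by the list, and no role in end joining is assigned to it here. In a list of 20 tested genes, mostly of mismatch and base excision repair, 7 rose, Tdg (0.40 ± 0.06) and Tdp2 (0.46 ± 0.09) among them. Parp3 (-0.56 ± 0.07) and Fen1 (-0.34 ± 0.06) of that list fell. Tdp2 and Parp3 were placed in it by the list and not by route. Of 18 nucleotide excision genes 1 rose and 4 fell: Ercc6 was higher (0.54 ± 0.09), and Ddb1 (-0.43 ± 0.03), Gtf2h4 (-0.61 ± 0.10) and Gtf2h1 (-0.20 ± 0.06) were among the lower. The 4 that fell make a share close to the 21.2% of all genes tested.

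p53 target genes, which are induced by persistent DNA damage, did not stand apart in their counts: of 22 tested 4 rose and 4 fell, with a median of 0.08, next to 17.4% and 21.2% of all genes tested. Cdkn1a, the inhibitor of cyclin-dependent kinases, rose (0.26 ± 0.07 SE), as did Fas (0.36 ± 0.07), Sesn1 (0.65 ± 0.21) and Bbc3 (0.26 ± 0.09). Gadd45a (-0.27 ± 0.03), Tigar (-0.35 ± 0.06), Btg2 (-0.23 ± 0.07) and Mdm2 (-0.13 ± 0.05) fell.

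**Figure D4:**
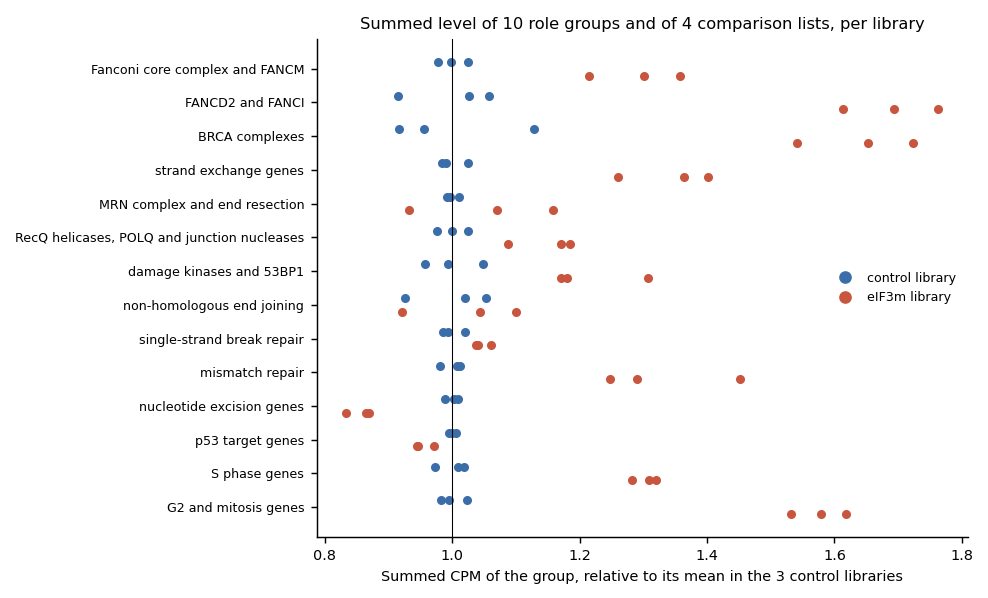
Summed CPM of the 10 role groups with more than 1 tested gene, and of 4 comparison lists, in each library, divided by the mean of the 3 control libraries (x axis), control in blue and eIF3m in red. Of the groups drawn, BRCA genes and the FANCD2 and FANCI pair lie furthest right with the mitosis list. End joining and MRN groups overlap their controls, and nucleotide excision and p53 target genes lie left. The nucleotide excision sum was 1951 to 1991 CPM in controls, of which Ddb1 alone went from 1103 to 820 CPM on average. The median log2 fold change of that list was 0.008.

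Genes of the cell cycle rose with the repair genes, next to 17.4% of all genes tested that rose. Of 32 S phase genes 25 rose and 0 fell in edgeR, with 26 at an unadjusted p under 0.05, and their median log2 fold change was 0.46. Prim1 (0.59 ± 0.07 SE), Uhrf1 (0.50 ± 0.06), Rrm2 (0.60 ± 0.07) and Tk1 (0.79 ± 0.10) led by p. All 35 genes of the G2 and mitosis list rose, with a median of 0.66, and Mki67 (0.81 ± 0.05), Ncapd2 (0.82 ± 0.06), Cdk1 (0.60 ± 0.05) and Top2a (0.82 ± 0.08) led by p. Of 20 E2F and MuvB regulators 9 rose, led by Mybl2 (0.90 ± 0.08), Tfdp2 (0.99 ± 0.15), Foxm1 (0.76 ± 0.12) and E2f7 (1.04 ± 0.19), and Rb1 fell (-0.35 ± 0.12).

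The summed members went from 1219 ± 3.88 to 1449 ± 51.7 CPM (SD, n = 3), 1.19-fold, while the S phase list went from 1072 ± 25.2 to 1397 ± 20.8 CPM, 1.30-fold, and the G2 and mitosis list from 1385 ± 29.2 to 2183 ± 60.3 CPM, 1.58-fold. Set against the S phase counts of the same library, the 57 members stood at 113%, 112% and 117% in controls and at 104%, 100.4% and 107% in the eIF3m libraries, all below the controls. Among the 26 members that rose, 10 also lay above the controls in every eIF3m library when counted against the S phase list, and 16 overlapped. The 10 were Atr, Bard1, Blm, Brca2, Exo1, Fancd2, Msh5, Polq, Rad54b and Xrcc2. Against the G2 and mitosis list 4 lay above, Fancd2, Msh5, Polq and Rad54b, and 6 below, among them Atm, Msh6, Parp2, Rad50 and Xrcc3. Fancd2 amounted to 1.93%, 1.98% and 1.82% of the S phase counts in controls and to 2.90%, 3.16% and 2.67% in the eIF3m libraries. Msh6 amounted to 5.58%, 6.03% and 6.51% and to 5.997%, 5.46% and 6.61%, with overlap. The members were sorted into risen and not risen with the same counts, so these ratios are a description. All 26 risen members were already separated in CPM, and the share of all genes with separated ratios was not computed. The counts of members above or below the controls therefore have no background to be read against. The part of cell cycle state in the rise of the members was not tested.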

How the data were processed

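RNA was sequenced from 3 control and 3 eIF3m siRNA libraries, grouped by the labels. The authors deposited whole-number counts per gene symbol. The submitters' processing notes name Trimmomatic 0.40, HISAT2 2.2.1, featureCounts, DESeq2 and limma with build rn6, without roles. Annotation, strand and multi-mapping settings were not given in the sources used here. Overlapping or antisense genes and close paralogues are therefore uncertain. In each library 27 date-like symbols (0.203% to 0.216% of counts) were left out. edgeR 4.0.16 in R 4.3.3 was run on all genes passing filterByExpr (minimum count 10, minimum total 15), with TMM scaling, the quasi-likelihood F-test, no covariate and Benjamini-Hochberg adjustment over 12724 genes, two-sided, at 0.05. Log2 fold changes are eIF3m over control. SE is the fold change divided by the root of F, and 95% intervals use it. CPM does not account for gene length, so levels are compared between libraries and not between genes. DESeq2 1.42.0 and limma 3.58.1 were alternatives. The edgeR step was tested on simulated counts. A total of 3 counts was worth 0.287 to 1.33 CPM.

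Members and lists were chosen with earlier results of these data known. The naming rule gave library values for up to 4 members per role with the lowest p and for fixed members, and in other lists for up to 4 called genes and for directions that 5 or fewer took. Symbols of 56 members matched RefSeq and 1 matched a synonym (GRCr8). A planned comparison of protein sequences was not made. Results for some genes are not reported here, while counts and sums over lists include them.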

Additional observations from a re-analysis of the deposited data

How the results depend on the processing

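Across 16 alternatives 17 of the 26 risen members kept their call in each that tested them (14 for Rad54b), and the count of risen members ran from 22 to 27 when a library was left out. It was 26 with RLE scaling and robust dispersion, 31 with upper-quartile scaling, 25 with no filter, 28 with a stricter filter and 18 with libraries thinned to the smallest, where 1 member (Rbbp8) fell in place of 0. With no scaling factors the median of all genes moved by 0.15 on the log2 scale and 38 members rose. The 12 members gained there included Chek1, Fancg, Rad54l2 and Xrcc1, the last at -0.0016 in the main fit. Over all genes 2220 rose and 2700 fell, as against 4163 and 1680 with no scaling factors and 1371 and 1784 with thinned libraries. Correlations of same-numbered deviations over all tested genes were near 0, at 0.030, -0.0054 and 0.0077. Counting noise enters these values, so they cannot tell whether same-numbered libraries shared a culture or day. Not every library correlated best with its own number. With a replicate block 25 members rose and Fanci was not called.

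Members near 0 changed sign. Xrcc1 was at 0.0030 with RLE scaling, 0.0098 with limma-voom, 0.14 with no scaling factors, 0.0006 with the replicate block, 0.018 with a stricter filter, 0.041 with thinned libraries, 0.067 with upper-quartile scaling, and -0.017 to 0.026 with a library left out. With no scaling factors Lig3 was at 0.064, Msh3 at 0.065, Rad52 at 0.11 and Xrcc5 at 0.12, and with upper-quartile scaling Rad52 was at 0.034 and Xrcc5 at 0.038. With thinned libraries Fance was at -0.019, Msh3 at 0.12, Rad52 at 0.14 and Xrcc6 at -0.035. Prkdc was at -0.034 with DESeq2 and -0.049 with the replicate block. With a library left out, Fance ran from -0.032 to 0.092, Msh3 from -0.18 to 0.046, Mus81 from -0.014 to 0.11, Prkdc from -0.12 to 0.096 and Rad52 from -0.093 to 0.037. The cause was not tested. A total of 3 counts was worth 1.33 CPM in eIF3m replicate 2, the shallowest library, and 0.287 to 0.425 CPM in the others.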
